A study of Mus musculus with 6 samples.

Results

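The 2 cultures of each KDM5A group differed from each other in genes of several functions. Single genes were tested over both KDM5A groups jointly, and no group of genes was tested. Arrays of replicate 1 of the wild type KDM5A and KDM5A-H483A groups, called first cultures here, were compared with arrays of replicate 2 of the same groups, called second cultures. These were 4 of the 6 samples of the series, chosen by their labels and not by their values. The first cultures carried more RNA of extracellular matrix genes, interferon-stimulated genes and growth arrest genes. Relative to all genes, the second cultures carried more RNA of genes that build ribosomes and of DNA replication genes. On that scale they also carried more of Ankrd1, Ccn2 and Crim1, targets of the mechanically controlled YAP/TEAD factors. However, 2 other such targets, Tgfb2 and Rbms3, were higher in the first cultures. Of 64 mechanical genes measured, 4 were called lower (6.25%, against 1.93% of all genes) and 2 higher (3.12%, against 3.34%) in the first cultures.

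All samples were immortalized Kdm5a-/- mouse embryonic fibroblasts (MEFs) of mixed background strain, so the Kdm5a deletion is shared by every group. Empty vector cells received no KDM5A, wild type KDM5A cells had the intact protein put back, and KDM5A-H483A cells had a form with a histidine in the catalytic domain changed to alanine. KDM5A removes methyl groups from lysine 4 of histone H3. Cells were grown subconfluent in medium with fetal bovine serum, harvested with trypsin, and total RNA was hybridised to Affymetrix mouse arrays, with 2 arrays per group. The labels call them biological replicates. They do not say how cultures were separated, whether equal numbers in different groups mean a shared day, or whether a group was a pool of cells or a clone, so a p-value here speaks of the scatter among these arrays alone. In such bulk RNA, more cells of 1 kind and more RNA per cell cannot be told apart.

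Fibroblasts secrete and organise the collagens, proteoglycans and elastic fibres of connective tissue, and how much they make varies with density, growth and tension. Type I interferon acts through its receptor, JAK kinases and the STAT and IRF9 factors to switch on antiviral genes, many through an interferon response element in the promoter. Growing cells make ribosomes in the nucleolus under strong influence of MYC, while stretched or spread cells send YAP and MRTF into the nucleus, where they act with TEAD and SRF.

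Promoters are shown for 4 genes that separated the cultures, chosen because each holds the motif of the pathway its list stands for. Each run is 300 bases of the RefSeq promoter table (mouse build GRCm38.p6), from 250 bases before the transcription start to 50 after it, 5′ to 3′ on the gene's own strand. Capitals mark matches, on either strand, to GAAANNGAA for the interferon response element core, GGAATG for TEAD and CACGTG for the E-box bound by MYC.
Ifit1: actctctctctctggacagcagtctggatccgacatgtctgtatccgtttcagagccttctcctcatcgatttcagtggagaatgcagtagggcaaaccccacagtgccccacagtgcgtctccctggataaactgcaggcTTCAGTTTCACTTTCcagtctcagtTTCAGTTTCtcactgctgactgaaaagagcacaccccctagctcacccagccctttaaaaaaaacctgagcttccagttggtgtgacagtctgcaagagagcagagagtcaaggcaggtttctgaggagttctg
Ankrd1: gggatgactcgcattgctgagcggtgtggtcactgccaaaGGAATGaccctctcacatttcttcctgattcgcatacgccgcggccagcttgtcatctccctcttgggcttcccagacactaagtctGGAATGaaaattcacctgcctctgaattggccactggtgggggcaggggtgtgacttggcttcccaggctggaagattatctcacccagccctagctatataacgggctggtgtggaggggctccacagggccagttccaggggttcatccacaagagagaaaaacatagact
Crim1: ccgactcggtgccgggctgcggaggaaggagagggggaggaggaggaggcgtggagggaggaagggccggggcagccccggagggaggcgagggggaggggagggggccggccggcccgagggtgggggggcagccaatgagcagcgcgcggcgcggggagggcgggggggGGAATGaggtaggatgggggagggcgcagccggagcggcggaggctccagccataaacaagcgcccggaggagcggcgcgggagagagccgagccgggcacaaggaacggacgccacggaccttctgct
Utp18: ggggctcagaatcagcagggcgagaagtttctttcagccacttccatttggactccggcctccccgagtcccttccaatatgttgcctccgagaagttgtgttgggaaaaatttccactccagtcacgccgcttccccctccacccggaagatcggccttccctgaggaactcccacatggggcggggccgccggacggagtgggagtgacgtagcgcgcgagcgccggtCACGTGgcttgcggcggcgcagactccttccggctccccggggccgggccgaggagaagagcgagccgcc
The Ifit1 window lies at chr19:34640639-34640938 on the plus strand and holds 3 matches, the first 2 of which overlap. The Ankrd1 window lies at chr19:36119795-36120094 on the minus strand and holds 2 matches. The Crim1 window lies at chr17:78199998-78200297 on the plus strand and the Utp18 window at chr11:93885717-93886016 on the minus strand, with 1 match each. All matches lie before the start, and a match is a description of letters, not evidence of binding.

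Values are log2 expression as deposited, so a difference of 1 is a doubling, and each difference is first minus second culture, averaged over the wild type and H483A pairs. In limma with KDM5A form as a block, 958 of 18194 genes passed an adjusted p of 0.05 between first and second cultures. Of these, 607 (3.34%) were higher in the first cultures and 351 (1.93%) were lower. Both first arrays lay above both second arrays for 4191 genes (23%) and below them for 3755 (20.6%). At least 1 log2 unit in the same direction in both pairs was reached by 147 genes higher (0.808%) and 18 genes lower (0.0989%) in the first cultures, and by 0 genes in opposite directions. The 95% interval of a difference had a median half-width of 0.343.

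Across genes, the wild type and H483A pair differences correlated with Pearson's r of 0.53 (Spearman's rho 0.35, 18194 genes, which are not independent and share 1 normalization). Only 8 genes were 1 log2 unit or more apart between the 2 first arrays, against 214 between the 2 second arrays. Leaving out 1 array leaves 1 side with a single array, assumed to vary like the other side, so the spread then comes from the pair left on that other side. Without the wild type first array or the H483A first array, where the second arrays set the spread, limma on the other 3 arrays, without the block, called 0 genes in either direction, with 1007 and 1387 genes at an unadjusted p under 0.05. Where the first arrays set the spread, it called 1077 genes higher and 1121 lower without the wild type second array, and 508 higher and 316 lower without the H483A second array. These counts follow the spread of the pair left and are no sign of stability. With all 6 arrays and 1 shared replicate effect, limma called 0 genes, with 2124 at an unadjusted p under 0.05. Without the block on 4 arrays it called 202 higher and 44 lower. Arrays were also centred on their cytosolic ribosomal protein genes. These had median differences of -0.10 in the wild type and -0.64 in the H483A pair, with 1 of 20 called. Centring moved the median difference of all genes from 0.00 to 0.49 and left 1026 genes higher and 3 lower.

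**Figure D1:**
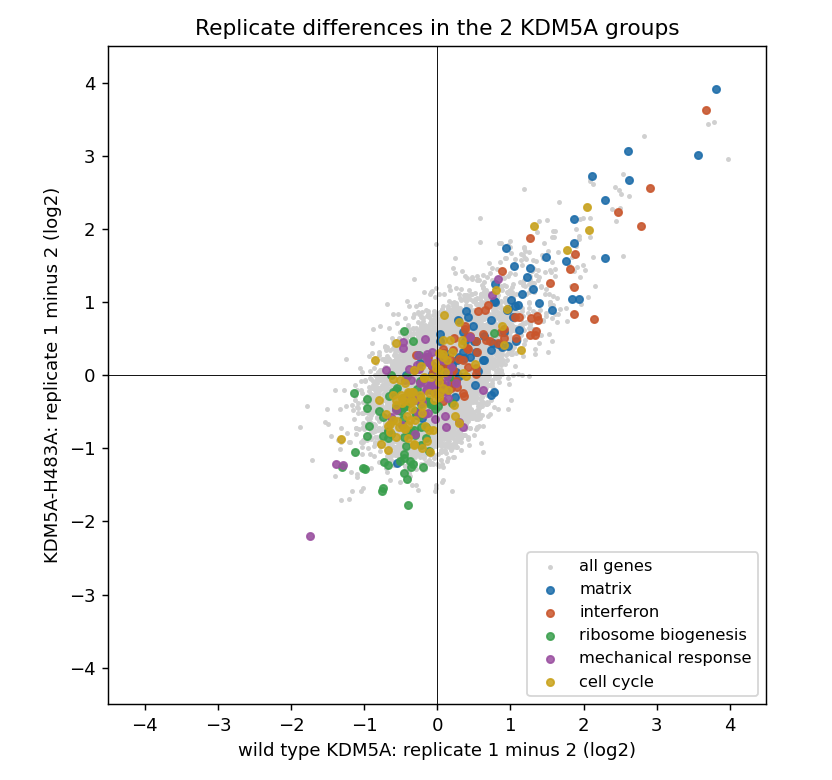
Each point is a gene, with the first minus second difference (log2) of the wild type KDM5A pair on the x axis and of the KDM5A-H483A pair on the y axis. Colours mark the 5 gene lists. Matrix and interferon genes extend to the upper right, up to Mme at 3.81 and 3.91, and Ankrd1 lies at the lower left, at -1.74 and -2.20.

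Technical readings and the identity of the cells were as follows. Array medians lay between 4.55 and 4.60. The mean of 7 bacterial hybridization control probe sets was 10.05 on the H483A second array and 10.39 to 10.72 on the other 5. The first minus second difference in these controls was thus -0.32 for wild type and 0.37 for H483A, opposite in sign, and their part in the results was not tested. The 3′ to 5′ difference of Actb probe sets was 0.15 and 0.16 higher in the first arrays of the pairs, and that of Gapdh differed by -0.51 and 0.06. The targeted gene Kdm5a read 5.96 and 6.11 on the first arrays, 5.83 and 5.89 on the second, and 5.89 and 5.83 with empty vector, so all 6 arrays lay close together. The labels and sources do not say which species' KDM5A was put back or whether the probes lie in the deleted stretch.

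All 10 fibroblast markers fixed for the check were measured, and Vim, an intermediate filament of mesenchymal cells, read 12.77 to 13.39 on all 6 arrays. Of these markers, Col1a1, Col1a2, Pdgfra and Pdgfrb were called higher in the first cultures and 0 lower. Among 8 epithelial markers 1 was called, the keratin Krt19, higher in the second cultures, with Epcam and Cdh1 at or below 4.21 on every array. The log2 of the summed epithelial list ran from 8.26 to 8.33 on the first and from 8.38 to 8.60 on the second arrays. Sox2 of the neural list and Pparg of the adipocyte list were also higher in the second cultures, and the endothelial, blood, skeletal muscle and smooth muscle lists had 0 calls. Summed levels (log2) of further lists were also higher on the second arrays without overlap. They were 8.71 to 8.75 against 8.92 to 8.95 for smooth muscle or pericyte, 8.70 to 8.80 against 8.99 to 9.19 for neural, 7.20 to 7.33 against 7.34 to 7.40 for endothelial, 7.84 to 7.85 against 7.89 to 7.93 for skeletal muscle and 6.57 to 6.86 against 7.08 to 7.29 for adipocyte markers, while the fibroblast sum was lower there, 14.34 to 14.60 against 14.79 to 14.83. Many of these markers read low: 5 of 6 endothelial, 5 of 7 skeletal muscle and 3 of 4 adipocyte markers lay below the median gene level on all 6 arrays. For smooth muscle or pericyte this held for 2 of 6 and for neural markers for 2 of 5. With 2 against 2 arrays, 20.6% of all genes were higher on the second arrays without overlap. The part of other cell types in the results was not tested.

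A set of 6 marker genes illustrates the difference between the cultures. They belong to lists chosen with earlier results of these data known, so their values and p-values are a description and not independent evidence. Mme, the surface peptidase neprilysin, read 9.02 and 8.59 on the first arrays (wild type, then H483A, the order used from here on) and 5.22 and 4.68 on the second. Empty vector cultures 1 and 2 read 7.71 and 7.03, between the first and second KDM5A cultures. The difference of 3.86 (SE 0.15, limma adjusted p = 7.19e-07) is the highest of all genes tested. Ifit1, an antiviral protein that binds foreign RNA, read 9.41 and 8.87 against 5.73 and 5.26, with empty vector at 7.23 and 6.59. Its difference was 3.65 (SE 0.15, limma adjusted p = 7.19e-07). Postn, the matricellular protein periostin, read 9.65 and 9.29 against 6.08 and 6.29, with empty vector at 9.16 and 8.42. Col3a1, the chain of type III collagen, read 13.13 and 12.90 against 10.51 and 10.24, and both empty vector arrays, at 12.70 and 12.35, lay near the first cultures. Postn differed by 3.29 and Col3a1 by 2.64, and for all 4 genes the first and second arrays did not overlap.

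Ankrd1 and Ccn2 went the other way. Ankrd1, an ankyrin-repeat cofactor induced by YAP, read 4.28 and 4.88 on the first arrays and 6.02 and 7.08 on the second, with empty vector at 4.48 and 5.23. The difference of -1.97 (SE 0.17, limma adjusted p = 7.22e-05) is the lowest of all genes tested. Ccn2, connective tissue growth factor, read 10.45 and 10.66 against 11.83 and 11.88, with empty vector at 10.91 and 11.24, a difference of -1.30 (SE 0.15). In both genes the second cultures stood above every other array.

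**Figure D2:**
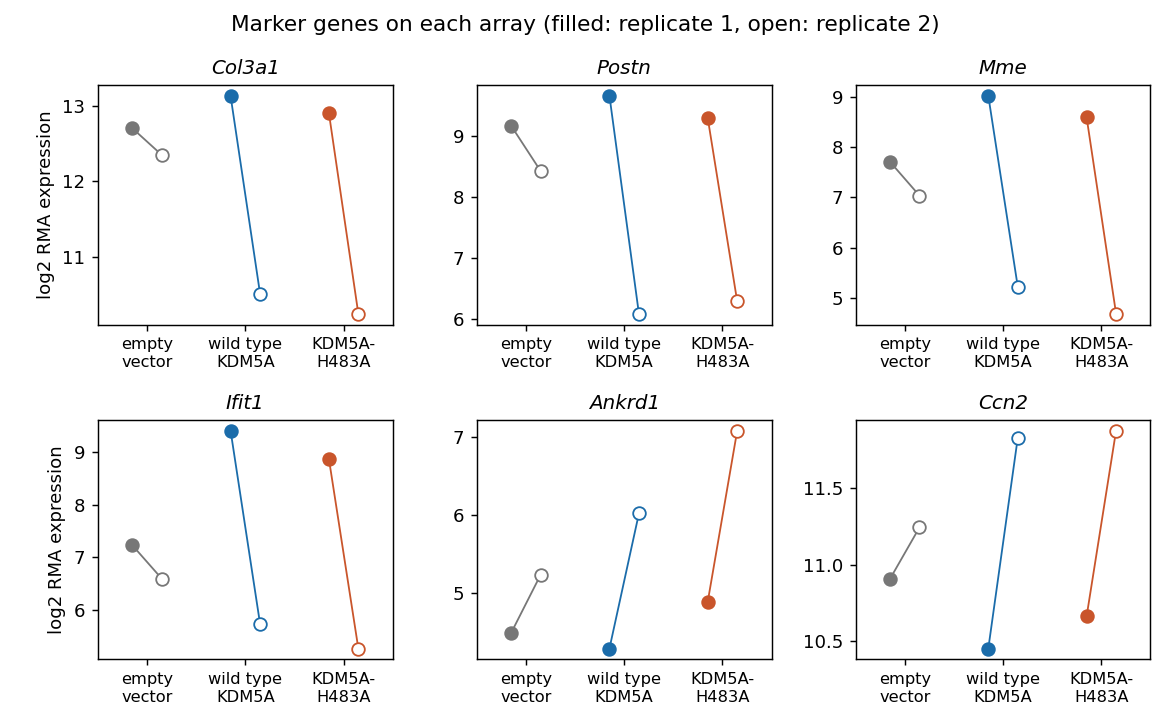
Log2 expression of 6 genes on the 6 arrays, with a filled point for replicate 1 and an open point for replicate 2 of each group, joined by a line. In both KDM5A groups Col3a1, Postn, Mme and Ifit1 fall by 2.62 or more from filled to open and Ankrd1 and Ccn2 climb by 1.22 or more, while the empty vector lines are shorter.

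The matrix list held 84 measured genes of 89. In the first cultures 35 were called higher (41.7%, against 3.34% of all genes) and 1 lower, and the median difference was 0.56, against 0.00 for all genes. The lists were chosen with earlier results of these data known, so these counts describe them and are not independent evidence. Fibrillar collagens, the load-bearing fibres, had 5 of 7 called, with a median of 1.13. Besides Col3a1 these included Col11a1 (8.88 and 8.51 against 7.95 and 6.77) and Col1a1, which read 12.44 and 12.39 against 11.22 and 11.05. Col1a1 differed by 1.28 (SE 0.15, limma adjusted p = 7.36e-04).

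Proteoglycans, several of which bind collagen fibrils, had 6 of 10 called with a median of 1.14. Aspn (asporin) read 8.95 and 8.50 against 6.35 and 5.43, and Dcn (decorin) read 8.26 and 8.07 against 5.97 and 5.67. Ogn (osteoglycin) differed by 2.00 and Lum (lumican) by 1.95. Versican, encoded by Vcan, was higher in the first cultures by 1.37 but ran the other way in empty vector cells, at 7.47 in culture 1 and 8.12 in culture 2.

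Elastic fibre and microfibril genes had 7 of 12 called. Fbn2, a fibrillin, read 9.35 and 8.97 against 7.22 and 6.25, a difference of 2.42 (SE 0.18), and Mfap2 differed by 1.44. The collagen VI chains Col6a1 and Col6a2 differed by 1.66 and 1.49, and Col8a2 by 1.84. Among enzymes and chaperones that finish collagen, Serpinh1 differed by 1.01 and the cross-linking enzymes Loxl1 and Lox by 1.02 and 0.90. The exception in the list was Pcolce2, an enhancer of procollagen processing, which was lower in the first cultures by -0.87 (limma adjusted p = 0.0188).

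Not every matrix gene separated the cultures. Matrix proteases and their inhibitors had 2 of 15 called, Mme and Adamts1, and a median of 0.30. Fibronectin (Fn1) differed by 0.23 (adjusted p = 0.524 in limma) and tenascin C (Tnc) by 0.35 (adjusted p = 0.279 in limma). Thbs2 was higher in the first cultures by 1.23, while Thbs1, which is also induced by YAP, differed by -0.40 (adjusted p = 0.224 in limma). The matrix median was 0.64 in the wild type pair, 0.47 in the H483A pair and 0.12 in the empty vector pair.

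Of the interferon list, 74 of 81 genes were measured. In the first cultures 29 (39.2%, against 3.34% of all genes) were called higher and 0 lower, with a median of 0.41. Antiviral effectors had 16 of 31 called. Rtp4, an interferon-induced transmembrane protein, read 9.26 and 8.50 against 6.35 and 5.95. Xaf1 differed by 2.41, Ifitm3, which blocks viral entry, by 1.64, and Oasl2 by 1.45. First and second arrays were apart in 23 of the 31 effectors, all with the first arrays higher, against 23% of all genes. Mx1, a classic interferon-induced GTPase, read 3.18 to 3.67 on all 6 arrays and did not pass the test (difference 0.05).

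Interferon-inducible GTPases that attack the vacuoles of parasites had 5 of 7 called. Iigp1 read 5.62 and 5.48 against 3.74 and 3.82, and Igtp read 6.45 and 5.99 against 5.08 and 5.24. For Igtp the second arrays lay near the empty vector arrays (5.37 and 5.19). Usp18, the protease that removes ISG15 and dampens receptor signalling, read 6.78 and 6.21 against 4.31 and 3.98. Here too the empty vector arrays, at 4.51 and 4.38, lay next to the second cultures, so the first KDM5A cultures stood alone.

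Upstream steps had these members called. Of 5 transcription factors, Irf9, Stat2 and Irf1 were higher in the first cultures by 1.40, 0.93 and 0.63. Of 7 receptor and kinase genes, Ifnar1 (1.16) and Jak1 (0.72) were called. The sensor Ifih1, which detects double-stranded RNA, was called at 0.83, and the other 6 measured sensors did not pass. None of the 3 measured interferon ligand genes passed, and Ifnb1 read 4.31 to 4.68 on all 6 arrays. Antigen presentation had 1 of 10 called, Tapbp at 1.03. First arrays lay above second arrays in 9 of the 10, against 23% of all genes. The interferon median was 0.42 in the wild type, 0.40 in the H483A and 0.09 in the empty vector pair.

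**Figure D3:**
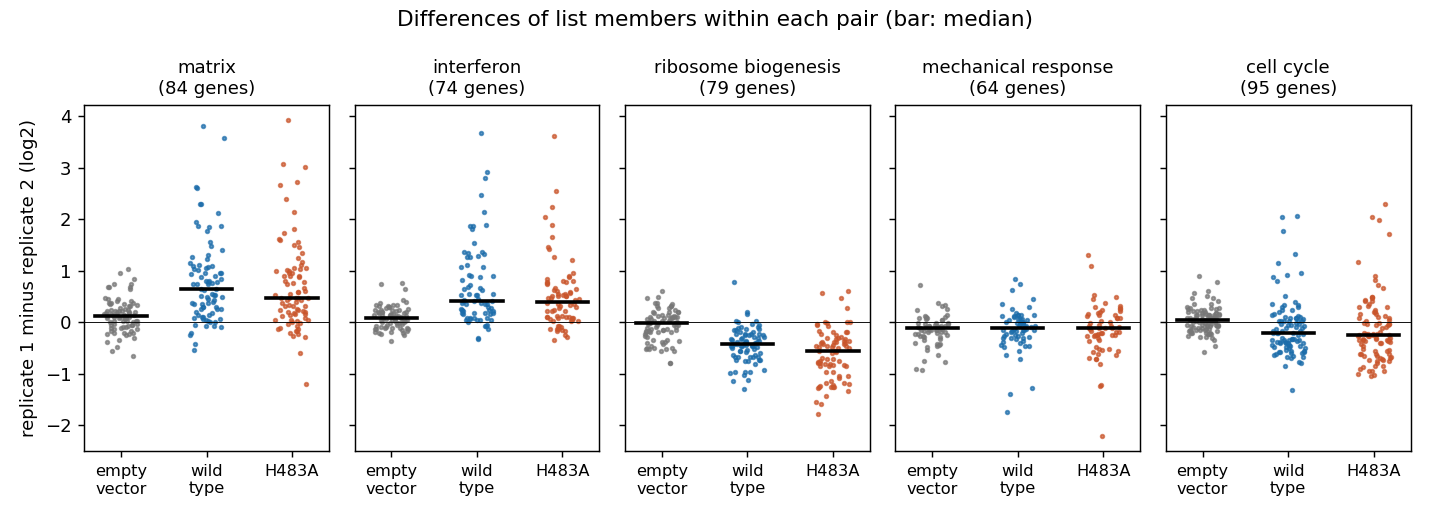
First minus second differences (log2) of every measured member of 5 lists, in the pairs of the 3 groups, empty vector at the left. Points are genes and bars are medians. Matrix and interferon bars lie above 0 and the ribosome biogenesis bars below 0 in both KDM5A pairs, and the empty vector medians of these lists lie between -0.02 and 0.12.

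Ribosome biogenesis ran in the opposite direction. Of 79 measured genes of 80, 28 (35.4%, against 1.93% of all genes) were lower in the first cultures and 1 was higher, with a median of -0.51. First arrays lay below second arrays in 64 of the 79 (against 20.6% of all genes) and above them in 2 (against 23%). Proteins of small nucleolar particles, which guide the modification of ribosomal RNA, had 6 of 9 called and a median of -0.72. Among them Nhp2 read 7.95 and 7.97 against 8.70 and 9.55, and Fbl (fibrillarin, the RNA methyltransferase) read 7.77 and 8.08 against 8.23 and 9.15. Nolc1, a nucleolar chaperone of these particles, read 5.94 and 6.62 against 6.95 and 7.88.

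Small subunit processing had 7 of 23 called. Utp18, of the processome that trims the small subunit's RNA, read 6.22 and 6.59 against 7.52 and 7.85, with empty vector at 6.90 and 7.08. Its difference was -1.28 (SE 0.15, limma adjusted p = 7.27e-04) and -1.30 and -1.26 in the separate pairs, and the second arrays did not overlap any other array. Large subunit assembly had 11 of 27 called. Gtpbp4 and Rrs1 differed by -1.14 and -1.13, and Ddx21, an RNA helicase of the nucleolus, by -1.08.

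The H483A second array carried the larger part of several of these differences. Ncl (nucleolin), among the most abundant nucleolar proteins, read 11.40 there and 9.34 to 10.10 on the other 5 arrays, so its difference of -1.08 (SE 0.26, limma adjusted p = 0.0357) was -0.40 in the wild type and -1.77 in the H483A pair. Npm1 (nucleophosmin) showed -0.42 and -0.97. Cytosolic ribosomal protein genes, 20 of 30 measured, had a median of -0.10 in the wild type pair and -0.64 in the H483A pair. Of these, 1 was called, lower in the first cultures (5%, against 1.93% of all genes). Mitochondrial ribosomal protein genes had medians of -0.29 and -0.65, with 6 of 34 called lower (17.6%, against 1.93% of all genes) and 0 higher. That the 2 pairs differed for these lists was not tested, and the same array had the lowest hybridization controls.

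RNA polymerase I transcription had 0 of 8 called (median -0.29), and Polr1a differed by -0.43 (adjusted p = 0.153 in limma). Myc itself read 6.73 and 6.88 against 7.69 and 7.21, a difference of -0.64 (adjusted p = 0.0679 in limma). The biosynthetic MYC targets Odc1, the polyamine enzyme, and Ppat, of purine synthesis, were called at -0.92 and -0.90. Mxd4, a partner of MAX that opposes MYC, was the member higher in the first cultures, by 0.68. The biogenesis median was -0.42 in the wild type, -0.55 in the H483A and -0.02 in the empty vector pair.

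The mechanical response did not separate the cultures as a whole list. Of 64 measured genes of 68, 2 were called higher (3.12%, against 3.34% of all genes) and 4 lower (6.25%, against 1.93%). First arrays lay above second arrays in 5 genes (against 23% of all genes) and below them in 22 (against 20.6%). The median of -0.09 was no further from 0 than that of the empty vector pair, -0.12. On arrays centred on ribosomal protein genes it was 0.39, where all genes stood at 0.49. What differed was a handful of YAP/TEAD targets: Ankrd1, Ccn2 and Crim1 lower, and Tgfb2 (0.92) and Rbms3 (1.07) higher in the first cultures. Crim1, a membrane protein that binds bone morphogenetic proteins, read 7.77 and 8.29 against 9.06 and 9.52, a difference of -1.26. Ccn1, a close relative of Ccn2 and also a YAP target, read 9.17 and 9.22 against 9.04 and 9.93, so its arrays overlapped (adjusted p = 0.547 in limma).

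Of the 15 Hippo pathway genes and the 3 genes of SRF and its cofactors, 0 were called. Of 14 contractile targets 0 were called. First arrays lay below second arrays in 7 of these targets (against 20.6% of all genes) and above them in 0 (against 23%). Acta2, smooth muscle actin, read 13.01 to 13.14 on all 6 arrays. Among focal adhesion genes Actn1, which cross-links actin, passed at -0.60 (limma adjusted p = 0.0462). The 3 strongest targets and the list they belong to thus gave different pictures of the same cultures.

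Cell cycle genes split by role. Of 95 measured genes of 98, 8 were called higher (8.42%, against 3.34% of all genes) and 10 lower (10.5%, against 1.93%) in the first cultures. DNA replication had 7 of 31 called lower and 0 higher, with a median of -0.43. First arrays lay below second arrays in 24 of the 31, against 20.6% of all genes. Rrm2, the small subunit of ribonucleotide reductase, read 8.51 and 8.57 against 9.82 and 9.45, and Mcm5, of the replicative helicase, read 6.96 and 7.11 against 7.60 and 7.90. Mcm2, of the same helicase, differed by -0.10 (adjusted p = 0.847 in limma). Mitosis had 2 of 32 called, Birc5 (survivin) at -0.86 and Bub1, a spindle checkpoint kinase, at -0.66, with a median of -0.33. Among these 32 genes, first arrays lay below second arrays in 19 (against 20.6% of all genes) and above them in 1 (against 23%).

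Growth arrest genes had 7 of 14 called higher in the first cultures and a median of 0.64. Gas1, a membrane protein first found in arrested fibroblasts, read 12.21 and 11.94 against 10.16 and 9.64, and Gas2 read 10.47 and 10.07 against 8.40 and 8.09. Empty vector arrays were close to the first cultures, at 11.67 and 11.54 for Gas1. Txnip and Btg2, which slow growth, differed by 1.74 and 1.68. The inhibitors of cyclin-dependent kinases had 0 of 7 called: Cdkn1a differed by 0.34 and Cdkn2b by 0.41, neither past the threshold. The difference between these roles was not tested. The cell cycle median was -0.20 in the wild type, -0.25 in the H483A and 0.04 in the empty vector pair. Over both KDM5A pairs it was -0.27, and 0.22 on arrays centred on ribosomal protein genes, where all genes stood at 0.49.

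**Figure D4:**
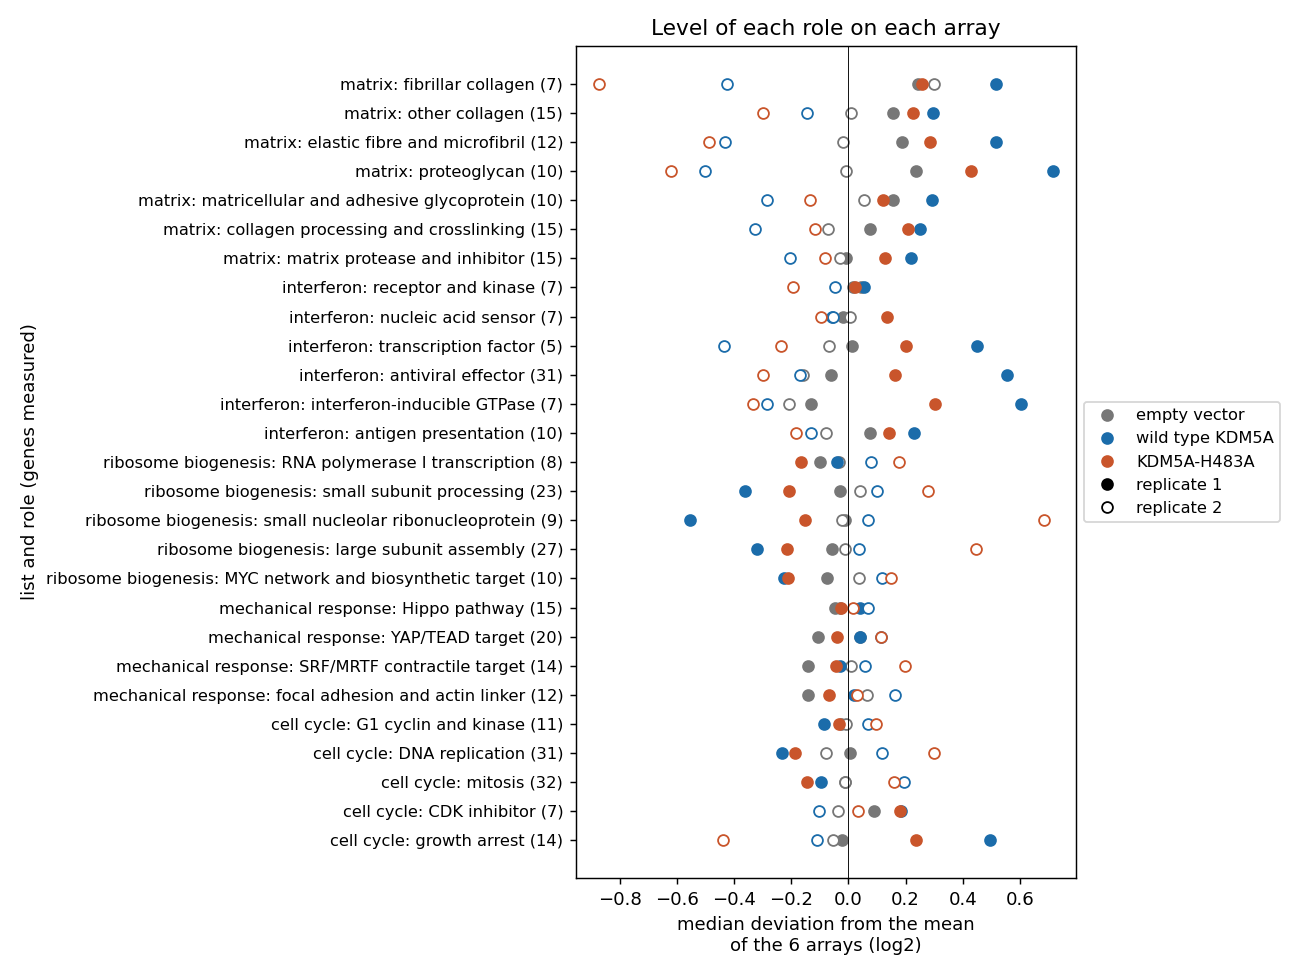
Median deviation (log2) of the members of each role from their own mean over the 6 arrays, on each array, with filled points for replicate 1 and open points for replicate 2. In each matrix role both filled KDM5A points lie to the right of both open ones, as for the antiviral effectors, while the wild type points of the nucleic acid sensors nearly coincide. Each ribosome role drawn has the open orange point of the H483A second array farthest to the right. Roles with under 5 measured genes are not drawn.

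Neighbouring pathways filled in the picture. Inflammatory chemokines had 9 of 17 called higher in the first cultures (52.9%, against 3.34% of all genes) and 0 lower, with a median of 0.59. Cxcl1, which attracts neutrophils, read 9.50 and 9.58 against 7.41 and 6.89, and Cxcl5 read 8.91 and 8.60 against 7.02 and 6.83. Cxcl12, the ligand of CXCR4, differed by 1.33 and Ccl2 by 0.98. Sterol synthesis had 2 of 14 called (14.3%), Dhcr7 and Sc5d, and complement 2 of 9 (22.2%), C1s1 and C1ra, all higher in the first cultures. TGF-beta pathway genes were mixed, with the receptors Tgfbr2 (1.12) and Tgfbr3 (1.66) and the ligand Bmp4 higher and Inhba, the activin subunit, lower by -0.82. Of 18 heat shock and unfolded protein genes measured, 3 were called in each direction (16.7%, against 3.34% of all genes higher and 1.93% lower). The chaperones Hspa4, Hspd1 and Hspe1 were lower and Trib3, Hspa1b and Ddit3 higher.

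Other genes with the largest differences lay outside the 5 lists. Cxcl15, a chemokine, read 8.37 and 7.92 against 4.59 and 4.47, and Penk, the precursor of enkephalin peptides, read 11.97 and 11.83 against 8.00 and 8.88. Hmcn1, the matrix protein hemicentin, read 8.22 and 7.78 against 4.52 and 4.35, and Abi3bp, a matrix-binding protein, read 9.53 and 9.32 against 6.70 and 6.05. Fos, a subunit of the AP-1 factor, differed by 2.85 and the imprinted long RNA Meg3 by 2.64. The genes highest in the second cultures were fewer and changed less. Among them Mpp6, a membrane scaffold protein, read 4.53 and 4.76 on the first and 5.85 and 6.47 on the second arrays. Dph5, an enzyme of diphthamide synthesis, differed by -1.45, the protease inhibitor Serpinb2 by -1.43, the metalloprotease Tll1 by -1.39, Fez2 by -1.38 and Ptgs2, the inducible cyclooxygenase, by -1.29. At least a 4-fold difference was reached by 33 of the 607 genes called higher and by 0 of the 351 called lower. Probe sets of a gene did not all lie in the direction given for Rtp4, Gas2, Dph5, Bub1 and Ifnar1 (1 of 2 did), for Ptn, Mcm5, Ppat and Mrps25 (2 of 3), for Hspa4 and Fip1l1 (3 of 4), for Sc5d (1 of 3) and for Meg3 (9 of 11).

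**Figure D5:**
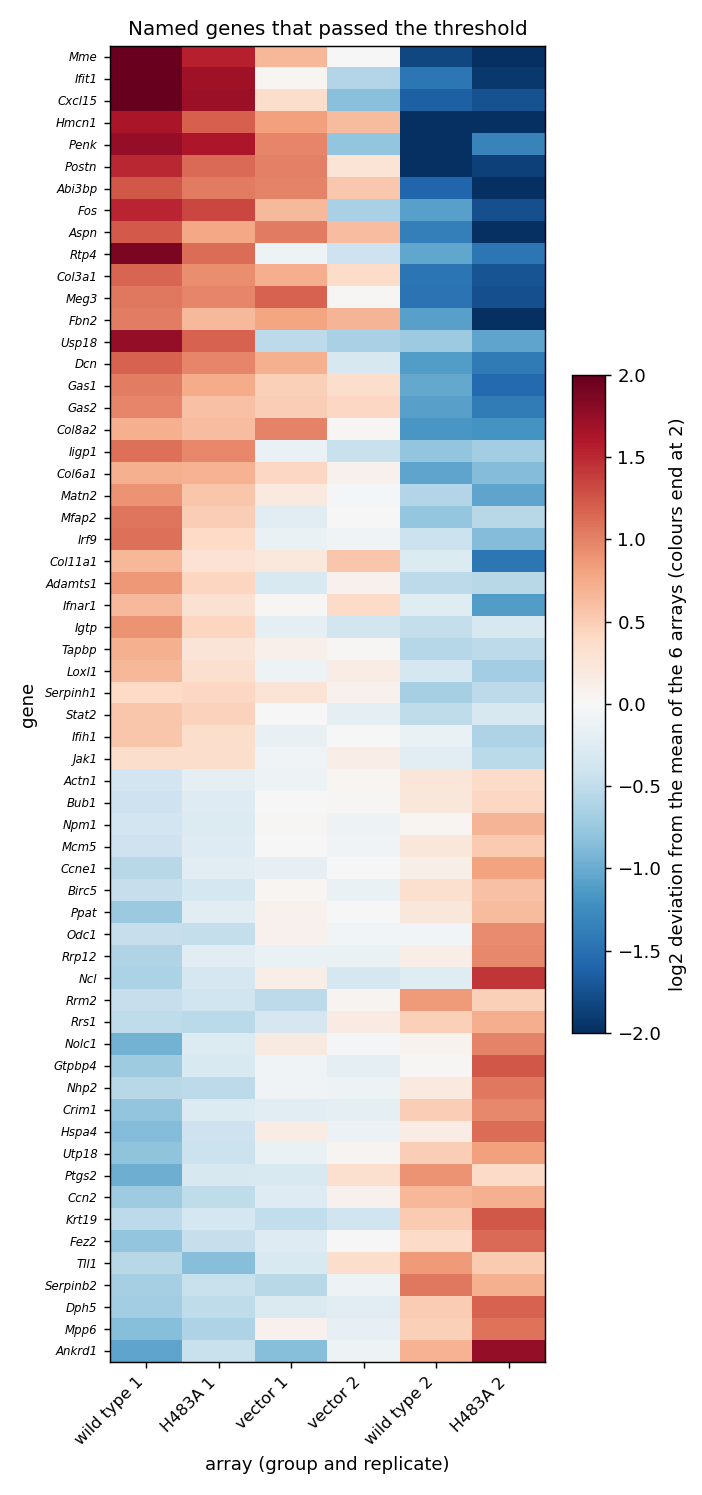
Deviation (log2) of each named gene past the threshold from its mean over the 6 arrays, with arrays as columns and genes ordered by difference. The empty vector columns in the middle are paler than the KDM5A columns for most genes, and Col3a1, Aspn and Fbn2 are red on both empty vector arrays while Usp18 is blue on both.

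The empty vector pair had no part in the test that called genes. Its arrays did count in choosing the brightest probe set of each gene. Its replicates were closer: 21 genes were at least 1 log2 unit higher in its first culture and 6 in its second, against 268 and 69 in the wild type pair and 266 and 170 in the H483A pair. Of the 607 genes called higher in the first KDM5A cultures, 446 (73.5%) were also higher in the first empty vector culture, against 50.3% of all genes. Of the 351 called lower, 223 (63.5%) were also lower there, against 49.6% of all genes. The differences were smaller, with a median of 0.18 in the empty vector pair against 0.89 over the KDM5A pairs for genes called higher, and -0.10 against -0.76 for genes called lower. These genes were chosen by their KDM5A differences, which favours large values on that side. This gap in size is therefore a description and no evidence of a smaller difference with empty vector. Both empty vector arrays lay between the first and second KDM5A arrays for 361 (59.5%) of the genes called higher and 187 (53.3%) of those called lower. The share over all genes was not computed. Genes called for a wide gap leave more room inside it, so these shares do not show an intermediate state. Across all genes the empty vector difference correlated with that of the wild type pair (r = 0.31, rho 0.22) but hardly with that of the H483A pair (r = 0.02, rho -0.02), a description across genes that share 1 normalization.

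The difference between the KDM5A pairs and the empty vector pair was tested in limma on all 6 arrays. The empty vector side is a single pair, so the 1 residual degree of freedom comes from the KDM5A pairs, and empty vector differences are assumed to vary as those do. It passed for 33 genes (0.181%) with the larger first minus second difference in KDM5A cells and for 1 gene, Mpp6, in the opposite direction (0.00550%). With empty vector Mpp6 read 5.46 and 5.21, so its difference there was 0.25. The leading gene was Hmcn1, at 7.41 and 7.22 in the empty vector cultures, whose difference was larger with KDM5A by 3.38 (limma adjusted p = 0.0011). Mme was larger by 3.19, Ifit1 by 3.01, Ptn (the growth factor pleiotrophin) by 2.61 and Abi3bp by 2.61. Ankrd1 and Ccn2 did not pass this test (-1.22 and -0.96, adjusted p = 0.2 and 0.31 in limma). Of the 5 lists, 7 matrix genes, 3 interferon genes and 2 growth arrest genes passed. For genes not called, an effect limited to KDM5A cells was not shown. On simulated arrays this test recovered 10.5% of genes shifted by 1 log2 unit, so differences near that size could be missed.

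The genes called were spread over the genome. Over the autosomes and X, the share called higher ran from 1.56% of genes on chromosome 17 to 4.88% on chromosome 10. The share called lower ran from 0.96% on chromosome 12 to 3.41% on chromosome 1, against 1.93% of all genes. The median difference of genes with a mean of at least 6 lay between -0.08 and 0.07 in both KDM5A pairs. On Y, 0 of 9 genes were called, and the 2 genes with such a mean had medians of 0.34 in the wild type, 0.80 in the H483A and -0.06 in the empty vector pair. The 4 measured markers of Y linkage and X inactivation had a median difference of 0.36 with 0 called, and the part of this in the results was not tested.

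Promoter windows were found for 14453 measured genes, in 18110 windows. The interferon motif GAAANNGAA was in 31.3% of the 67 interferon windows and in 40.7% of the 27 antiviral effector windows, against 7.37% of all windows. The E-box CACGTG was in 19.2% of the 78 ribosome biogenesis windows against 8.72% of all, but in the bases before the start alone in 8.97% against 7.38%. Over whole windows it was in 15.6% of windows of all genes called lower in the first cultures and in 6.13% of those called higher. The TEAD motif GGAATG was in 41.8% of the 67 mechanical response windows and in 9 of the 15 windows of YAP/TEAD targets, against 13.2% of all. The motif TTTGAA of the cell cycle homology region was in 23 of the 29 mitosis windows (79.3%), against 13.4% of all, and before the start alone in 37.9% against 11.9%. Motifs were searched on both strands, and these shares describe the lists and were not tested. In the mechanical and mitosis lists, which had high motif shares, 6.25% of members each were called lower in the first cultures, against 1.93% of all genes.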

How the data were processed

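Expression was measured on 6 arrays, 2 per group. The authors deposited log2 values per probe set, and the submitters' processing notes name RMA, which subtracts background, quantile-normalizes and summarises probes. The sources used here give neither its version nor the probe annotation. Quantile normalization hides changes in total RNA per cell, and the number of arrays limits the precision. Of 45101 probe sets, 34958 had 1 gene symbol, 932 several and 9211 none. Entrez IDs matched 34754 to the RefSeq gene table. The brightest probe set stood for each of 18194 genes (8485 with several), preferring those without the suffix of cross-hybridizing sets.

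Limma 3.58.1 (R 4.3.3) was fitted to the 4 KDM5A arrays with KDM5A form as a block and replicate as the effect, leaving 1 residual degree of freedom and a prior of 9.91. A second fit over 6 arrays compared the mean KDM5A pair difference with the empty vector pair. P-values are two-sided and Benjamini-Hochberg adjusted over all genes, at 0.05. The procedure was tested on simulated data. Noise there was normal and independent between genes and arrays, with variances drawn from the prior of the first fit. Scatter shared by many genes of an array was not simulated, so the calls without a shift do not measure that error. With no shift, the first fit called 0 of 18194 genes and the second 1. Of genes shifted by 1 log2 unit, the first fit recovered 97.5% and the second 10.5%. At 2 log2 units these shares were 100% and 99%. Gene lists (562 genes, 525 measured) and members were chosen with earlier results of these data known, so no list was tested. Named genes were the markers and Kdm5a, the 12 largest calls in each direction, up to 2 leading members of each role, the 5 leading genes of the second fit in each direction (by unadjusted p where fewer passed) and 2 leading members of each further list. Clone and predicted-gene symbols were passed over. Other members were named after their values were seen, to describe roles. Of 49 named genes called that had several probe sets, 36 had all of them in 1 direction. Promoters on chromosome 18 were not used here. Alternatives were the block, the arrays used, the variance prior, the probe set rule, a filter at a mean of 6, and the scaling.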

Additional observations from a re-analysis of the deposited data

Results flagged for a closer look

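The first minus second difference was larger in the KDM5A pairs than in the empty vector pair, by limma's test of that difference itself, for the following named genes. The excess (log2) was 3.38 for Hmcn1, 3.19 for Mme, 3.01 for Ifit1, 2.61 for Ptn, 2.61 for Abi3bp, 2.54 for Postn and 2.44 for Cxcl15. It was 2.42 for Aspn, 2.41 for Rtp4, 2.31 for Fbn2, 2.29 for Col3a1, 2.23 for Usp18, 2.04 for Gas1, 1.95 for Gas2 and 1.62 for Cxcl5. Mpp6 had the opposite sign, at -1.76. Adjusted p-values in limma ran from 0.0011 to 0.0431.

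The median of the TGF-beta list was below 0 in the wild type pair and above 0 in the H483A pair, a gap of -0.047. The gap was not tested and is small beside the median half-width of 0.343 for single genes.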

How the results depend on the processing

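Against 607 genes higher and 351 lower, limma without the block on KDM5A form called 202 and 44, with the higher share moving from 63.4% to 82.1%. One shared replicate effect over 6 arrays gave 0 and 0, and leaving out genes with a mean under 6 gave 354 and 176 among 7757 tested. Leaving out 1 array, without the block, gave 0 to 1077 higher and 0 to 1121 lower. With the block, leaving out 1 array leaves no residual degree of freedom and no test, in either fit. Centring arrays on ribosomal protein genes moved the median difference of all genes from 0.00 to 0.49 and gave 1026 higher and 3 lower (99.7% higher). On that scale the list medians were 1.05 for matrix, 0.90 for interferon, -0.024 for ribosome biogenesis, and, with the sign turned, 0.39 for mechanical response and 0.22 for cell cycle, so the last 3 lists still lay below all genes. The signs of Lats2 (0.094), Mrtfa (0.16), Polr1a (0.056), Tead2 (0.16) and Tpm2 (0.13), none of which passed the test, also turned. Without the block the result was weaker for 33 of the 93 named genes and the same for 60. Ankrd1 and Crim1 then fell short (limma adjusted p = 0.0604 and 0.0609). Actn1 fell short with a variance trend (limma adjusted p = 0.104) and without low genes (0.0757). With the mean of probe sets Bub1 (-0.26) and Hspa4 (-0.36) fell short (limma adjusted p = 0.325 and 0.153). Without the H483A second array Cdkn1b (-0.019) and Tpm2 (0.0074) changed sign, and Ifna4 (-0.014) did so over 6 arrays. With the mean of a gene's probe sets the medians were 0.30 for interferon, -0.087 for mechanical response and -0.19 for cell cycle. Among genes with a mean of at least 6, an alternative added after seeing the data, they were 0.63 for interferon and -0.083 for mechanical response. Using 1 KDM5A pair at a time gave -0.55 to -0.42 for ribosome biogenesis, -0.12 to -0.11 for mechanical response and -0.25 to -0.20 for cell cycle. The test against the empty vector pair (33 and 1) gave 59 and 5 with a variance trend, 0 lower with the mean of probe sets and 20 and 0 without low genes. Before the start alone, the E-box was in 8.97% of biogenesis windows (7.38% of all) and TTTGAA in 19.6% of cell cycle windows (11.9% of all). The cause of these changes was not tested.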

Other observations

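Genes outside the lists, picked after their values were seen, add to the description. Several early-response genes were higher in the first cultures. Egr1 read 10.69 and 10.72 on the first and 8.74 and 8.59 on the second arrays (wild type, then H483A), with empty vector at 10.73 and 9.44, and differed by 2.04. Egr2 and Junb differed by 0.84 and 0.70. Other members of this class did not follow: Jun differed by -0.14, Atf3 by -0.19 and Dusp1 by -0.34, and none of the 3 passed limma's threshold.

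Imprinted genes were split as well. Mest read 8.53 and 7.84 against 6.03 and 5.55, a difference of 2.39, with empty vector at 7.30 and 7.14. Rian, a long RNA of the same cluster as Meg3, differed by 1.27 and Sgce by 0.62. Peg3 differed by 0.42, Grb10 by 0.23 and Plagl1 by 0.00, and these did not pass. The nuclear long RNA Neat1 differed by 1.65, while its genomic neighbour Malat1 differed by 0.50 (adjusted p = 0.0912 in limma). Hmox1, the haem-degrading enzyme, was lower in the first cultures by -1.22, and with empty vector it read 6.84 and 7.78.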
